A study of Penicillium oxalicum with 9 samples.

Results

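In Penicillium oxalicum, 86 of 9822 annotated genes had opposite responses to the deletion of a protein arginine methyltransferase gene, prmt3, and of a transcription factor gene, cxrA. Their RNA was more abundant in Δprmt3 and less abundant in ΔcxrA than in the background strain. The genes were chosen from the measured values themselves: a mean of at least 2 in Δku70, a Δprmt3 mean at least 1.75 times that of Δku70, and a ΔcxrA mean at most 0.57 times that of Δku70, on a scaled FPKM (fragments counted on a gene relative to its exon length and to the size of the library, then divided by a factor for each library). Of the annotated genes, 8239 had a Δku70 mean of at least 2 and 96 met all thresholds. The rule left out 11 named genes, of which 10 met them, with Δprmt3 means 2.04 to 3.32 times and ΔcxrA means 2.66% to 46.8% of Δku70. Without the factors, 41 genes met the rule, all of them among the 86, since leaving the factors out made every threshold harder to meet. Because both comparisons chose the genes, their changes in those comparisons are given as a description, with no test.

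RNA was sequenced from 3 strains with 3 biological replicates each, all lacking ku70, a gene of non-homologous end joining whose loss favours gene targeting. Δprmt3 and ΔcxrA each lack 1 further gene and carry the G418 resistance marker that replaced it, whereas Δku70 carries hygromycin resistance only, so deletion and marker cannot be told apart. Spores were grown in minimal medium with 1% glucose for 24 h at 28°C, and the mycelium was moved to 2% Avicel, a microcrystalline cellulose, for another 24 h. Which and how many transformants of each mutant were sequenced is not stated in the sources used here, and no strain with the gene put back was among the libraries.

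Plant cell walls are built of cellulose, of hemicelluloses such as xylan and mannan, and of pectin. Filamentous fungi secrete mixtures of enzymes that cut the backbones and side chains of these polymers, and transcription factors of the Zn2Cys6 family switch their genes on when polymers are present and preferred sugars are absent. CxrA is such a factor, an activator of cellulase and xylanase genes in P. oxalicum, and PRMT3 enzymes transfer methyl groups to arginine residues, in fission yeast and mammals best known for a protein of the small ribosomal subunit.

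The deleted genes served as a check of the labels. The gene prmt3 (POX_b03080) had a scaled FPKM of 0, 0.0475 and 0 in Δprmt3, against 35.1, 27.4 and 30.2 in Δku70, and cxrA (POX_a00763) was listed at 0 in all ΔcxrA libraries, against 122, 133 and 94.1 in Δku70. That POX_a00763 is cxrA was inferred from the length of a PCR primer product. The libraries held 9846 to 10270 features above 0 of 11082, their scaling factors lay between 0.822 and 1.28, and their read depth was not recovered. The material was labelled as mycelium. Among 3 markers of spore formation, brlA (POX_c03558) and flbD (POX_e07032) were lower in both mutants than in Δku70, in every library. The third, abaA (POX_e06958), had 6.45, 4.67 and 5.14 in Δprmt3, 20.1, 18.1 and 17.3 in ΔcxrA and 13.3, 15.9 and 13.3 in Δku70. The 3 markers summed to 60.9 to 96.1 in Δprmt3 libraries, 27.5 to 30.9 in ΔcxrA libraries and 299 to 367 in Δku70 libraries, so the strains differed in these transcripts, and their part in the values below was not tested. In such whole-culture RNA, fewer cells of a type and less RNA per cell cannot be told apart. Actin (POX_d06005), often used as a constant gene, had 101, 91.8 and 90.9 in ΔcxrA, against 34.8, 34.5 and 37.0 in Δku70 on the same scale.

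The genes covered a wide range of expression. Means lay between 7.35 and 13423 in Δprmt3 (median 124), between 0.612 and 2475 in ΔcxrA (median 17.2), and between 2.17 and 6761 in Δku70 (median 48.8, against 36.9 over all annotated genes at or above the minimum of 2). In Δku70, 29 of the 86 had a mean of at least 100 and 4 of at least 1000. Their joint share of all FPKM was 4.96%, 4.80% and 4.59% in the Δprmt3 libraries, 0.872%, 1.02% and 1.02% in the ΔcxrA libraries, and 2.19%, 2.81% and 2.06% in the Δku70 libraries. The genes lay on all 8 chromosomes, with 20 on chromosome II, 14 on chromosome I and 5 on chromosome IV, and 1, POX_u09935, was not matched to a chromosome.

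The ratio of Δprmt3 to Δku70 had a median of 2.26 and a highest value of 20.1. It was under 2 for 34 genes, from 2 to 3 for 30 and at least 3 for 22. The ΔcxrA mean was 2.04% to 56.2% of that in Δku70, with a median of 36.3%. It was at most 25% for 18 genes, over 25% and up to 50% for 54, and over 50% for 14. The 5 genes with the highest Δprmt3 ratios and the 5 with the lowest ΔcxrA ratios had no gene in common, as the plot of both ratios shows.

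**Figure D1:**
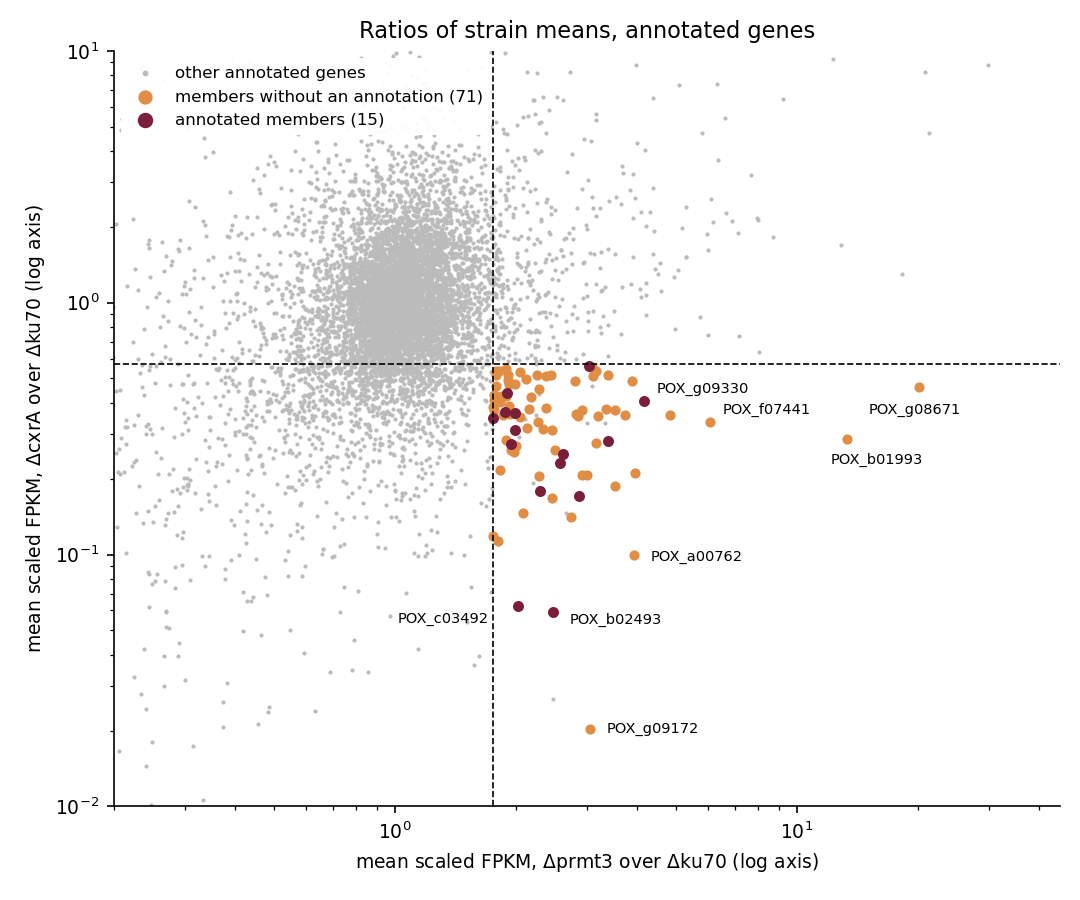
Mean scaled FPKM of Δprmt3 over Δku70 (x axis) and of ΔcxrA over Δku70 (y axis), both on log axes, for annotated genes with a Δku70 mean of at least 2; dashed lines mark 1.75 and 0.57, and grey points beyond the axis limits are not drawn. The 86 genes fill the lower right corner by construction, from 1.75 to 20.1 along x and down to 2.04% along y; grey points in that corner are the genes left out.

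In the fit across all features, 47 of the 86 were called higher in Δprmt3, where 3.72% of the 9363 annotated genes tested were, and 66 were called lower in ΔcxrA, where 13.9% were. A call needed an adjusted p-value under 0.05 (limma, Benjamini-Hochberg over all features) and an absolute log2 fold change over 1. For 36 both calls were made, against 0.502% of all annotated genes tested. All 3 Δprmt3 libraries lay above all 3 Δku70 libraries for 77 genes (21.9% of all annotated genes tested), all 3 ΔcxrA libraries lay below for 81 (35.5%), and 74 met both (7.24%). As the genes were selected on these same comparisons, nothing is read from these shares. The 12 genes whose libraries overlapped in at least 1 comparison were POX_a00257, POX_a01792, POX_a01931, POX_b02493, POX_b02598, POX_b02907, POX_b03270, POX_f07411, POX_f07412, POX_f08523, POX_g09173 and POX_u09935.

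Of the 86 genes, 15 carried an annotation in the study's tables as read here, 13 of them as enzymes acting on polysaccharides or their fragments. The other 71 were hypothetical proteins or were not among the entries read. The 13 enzyme genes were counted as enzymes of cellulose, mannan and xylan backbones, with a SUN family β-glucosidase among them (5 genes), enzymes of xylan and arabinan side chains and fragments (5) and enzymes of the pectin backbone (3). Their Δprmt3 means were 1.75 to 4.16 times those in Δku70, and their ΔcxrA means were 6.25% to 43.7% of those in Δku70.

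Among the backbone enzymes, the highest level belonged to POX_a00764, an endo-1,4-β-glucanase, which cuts cellulose chains internally. It had a scaled FPKM of 14854, 13578 and 11837 in Δprmt3, 1982, 2354 and 3090.1 in ΔcxrA and 6719, 6102 and 7461 in Δku70. The strains did not overlap, with every Δprmt3 library above and every ΔcxrA library below all Δku70 libraries, and the means were 1.99 times and 36.6% of Δku70. This gene alone took 1.22%, 1.07% and 0.906% of all FPKM in the Δprmt3 libraries. Of the endo-1,4-β-mannanases, which cut the mannan backbone, POX_b01946 had 9177, 9758 and 9797 in Δprmt3, 1092, 1426 and 2002 in ΔcxrA and 4716, 5342 and 4379.9 in Δku70. The other, POX_h09767, was far less abundant, with 229.7, 297 and 303 in Δprmt3, 17.1, 25.7 and 36.6 in ΔcxrA and 64.9, 82.4 and 170.4 in Δku70. Both showed no overlap between strains, but in Δku70 the third library of POX_h09767 stood well above the others.

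The endo-1,4-β-xylanase POX_c04184, which cuts the xylan backbone, had 858, 1176 and 994 in Δprmt3, 169, 195 and 228 in ΔcxrA and 557, 611 and 441 in Δku70. POX_c03714, annotated as a β-glucosidase of the SUN family, had 87.4, 105 and 94.1 in Δprmt3, 6.43, 8.29 and 11.1 in ΔcxrA and 29.3, 41.5 and 40.7 in Δku70. SUN proteins of yeasts take part in forming the fungus's own wall and septum. Both genes were separated without overlap in the 2 comparisons. These 5 genes had Δprmt3 means 1.88 to 2.61 times those of Δku70 and ΔcxrA means 23.2% to 36.8% of them.

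The side-chain enzymes were more uneven. α-L-Arabinofuranosidases remove arabinose side groups from xylan and arabinan, and their 2 genes lie side by side on chromosome III. POX_c03492 had 1339, 1807 and 1400.5 in Δprmt3, 52.7, 47.7 and 40.0 in ΔcxrA and 674, 575 and 998 in Δku70. Its neighbour POX_c03491 had 120.1, 145 and 106 in Δprmt3, 10.3, 9.81 and 8.95 in ΔcxrA and 44.9, 38.4 and 78.6 in Δku70. Neither gene overlapped between strains. With ΔcxrA at 6.25% of Δku70, POX_c03492 was the lowest without cxrA among the enzyme genes meeting the rule, and its neighbour was at 17.9%.

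On chromosome I, the exo-α-1,5-arabinanase POX_a01927, which shortens arabinan, had 79.0, 107 and 80.7 in Δprmt3, 14.1, 18.2 and 20.8 in ΔcxrA and 47.2, 62.9 and 42.1 in Δku70. It sits next to the β-D-xylosidase POX_a01928, which releases xylose from short xylan fragments, with 15.6, 20.1 and 17.0 in Δprmt3, 3.80, 4.17 and 4.15 in ΔcxrA and 8.40, 11.8 and 7.49 in Δku70. For both, the groups were separated in each comparison, with Δprmt3 means only 1.75 and 1.9 times those of Δku70. The acetyl xylan esterase POX_g09330, which takes acetyl groups off xylan, had 66.3, 87.9 and 75.7 in Δprmt3, 7.14, 7.42 and 7.99 in ΔcxrA and 15.3, 14.4 and 25.6 in Δku70. At 4.16 times Δku70, it had the highest Δprmt3 ratio among the genes meeting the rule that carried an annotation in the study's tables.

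Of the 3 enzymes of the pectin backbone, the rhamnogalacturonan hydrolase POX_b02031 had 80.0, 88.5 and 108 in Δprmt3, 5.84, 5.25 and 5.44 in ΔcxrA and 29.8, 25.4 and 41.3 in Δku70, with no overlap. The polygalacturonase POX_d05886, which cuts the polygalacturonic acid backbone, had 3.66, 11.1 and 7.24 in Δprmt3, 0.704, 0.692 and 0.441 in ΔcxrA and 2.46, 1.53 and 2.51 in Δku70. It was the least abundant of the 86 genes in Δku70. The pectin lyase POX_g09173, which breaks methylated pectin by elimination, had 31.5, 34.3 and 23.9 in Δprmt3, 4.29, 4.72 and 3.66 in ΔcxrA and 10.0, 7.92 and 28.2 in Δku70. For the pectin lyase, the highest Δku70 library lay above the lowest Δprmt3 library, so these strains overlapped, whereas all ΔcxrA libraries were lower.

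The 2 remaining annotated genes were not enzymes. POX_b02493, a Zn2Cys6 transcription factor gene, had 311, 60.9 and 48.3 in Δprmt3, 3.08, 3.14 and 3.88 in ΔcxrA and 60.6, 59.8 and 49.5 in Δku70. Its Δprmt3 mean rested on replicate 1, and without that library the log2 ratio to Δku70 was −0.05. In ΔcxrA the gene was at 5.94% of Δku70 with closely spaced libraries. POX_b03270, annotated as a sugar transporter-like member of the major facilitator superfamily, had 105, 132 and 93.9 in Δprmt3, 15.6, 20.8 and 24.8 in ΔcxrA and 41.4, 45.3 and 22.1 in Δku70. All Δprmt3 libraries were higher, but the highest ΔcxrA library lay above the lowest Δku70 library, and the gene was the nearest of all 86 to the ΔcxrA threshold.

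**Figure D2:**
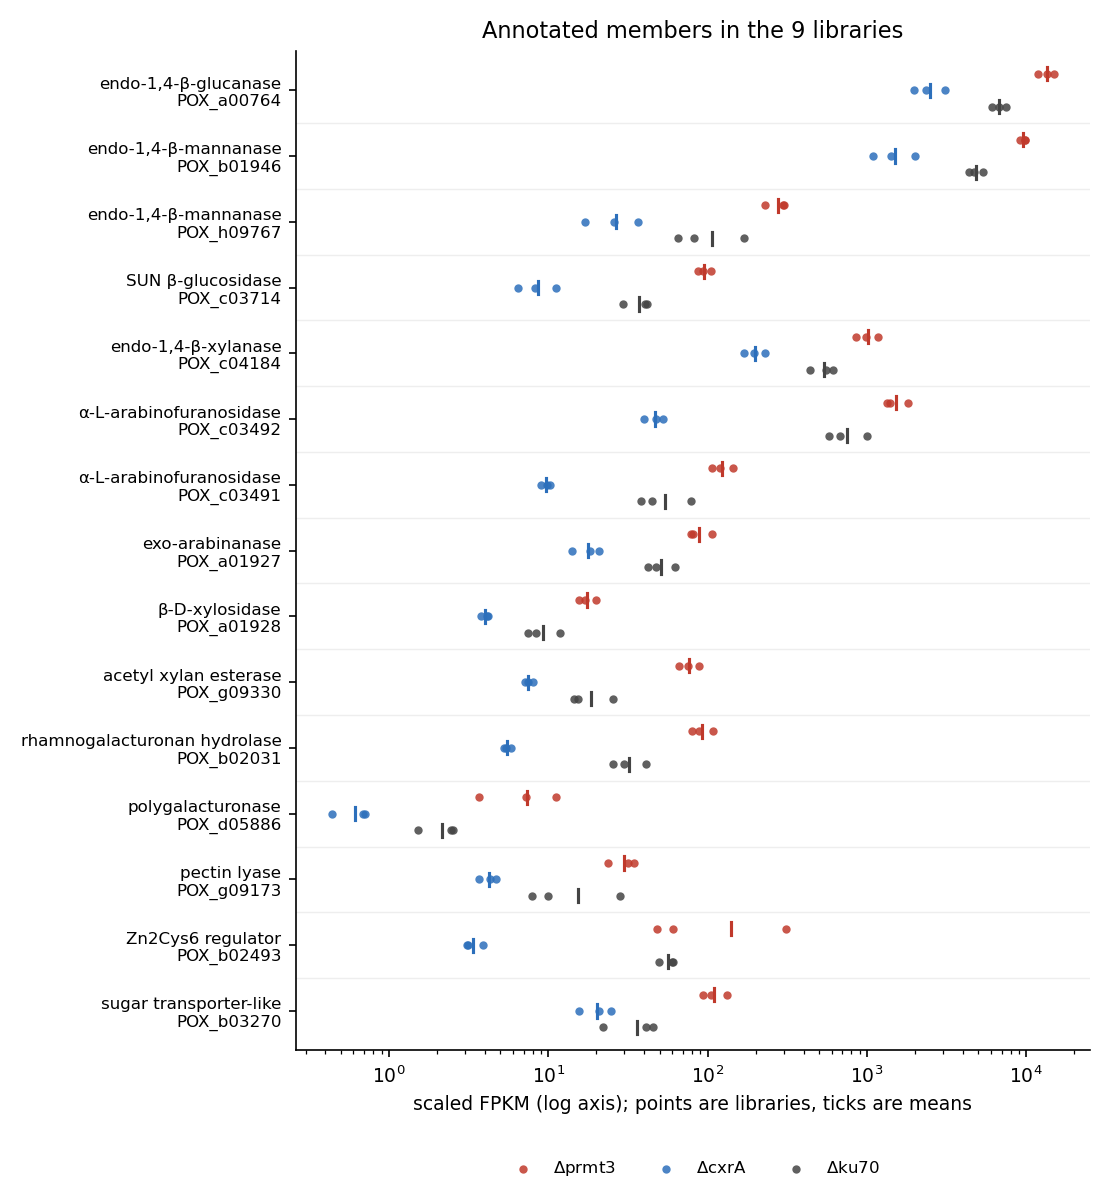
Scaled FPKM (log axis) of the 15 annotated genes in the 9 libraries; points are libraries and short ticks are strain means, with Δprmt3 in red above, ΔcxrA in blue and Δku70 in grey below. The 13 enzyme genes range from below 1 to 14854, and the red mean of the Zn2Cys6 gene POX_b02493 is set by 1 library at 310.5.

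Of the 86 genes, those with the 2 highest Δprmt3 ratios had no annotation in the study's tables. POX_g08671 had 466, 619 and 594 in Δprmt3, 11.4, 12.7 and 14.6 in ΔcxrA and 26.9, 32.8 and 23.9 in Δku70, a Δprmt3 mean 20.1 times that of Δku70. POX_b01993 had 107, 119 and 132 in Δprmt3, 2.21, 2.04 and 3.46 in ΔcxrA and 8.33, 5.08 and 13.4 in Δku70, a ratio of 13.3. Both had low levels in ΔcxrA and Δku70 and levels above 100 in every Δprmt3 library, and only these 2 of the 86 had ratios of at least 10. POX_f07441 followed at 6.09 times, with 35.4, 41.6 and 38.3 in Δprmt3, 3.57, 2.79 and 0 in ΔcxrA and 6.99, 7.85 and 4.10 in Δku70. It was listed at 0 in ΔcxrA replicate 3, which sets its position in that comparison in part. POX_f08228 had 105, 57.5 and 49.6 in Δprmt3, 4.04, 5.56 and 6.12 in ΔcxrA and 13.8, 20.5 and 9.65 in Δku70, a ratio of 4.82 with no overlap.

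Among the genes meeting the rule, the lowest ΔcxrA ratio was that of POX_g09172, next to the pectin lyase gene on chromosome VII. It had 182, 338 and 212 in Δprmt3, 2.02, 1.53 and 1.34 in ΔcxrA and 53.8, 45.5 and 141 in Δku70, so that ΔcxrA was at 2.04% of Δku70. In both POX_g09172 and POX_g09173, the third Δku70 library was the highest of the 3, at more than the sum of the others. Without that library, the log2 ratio of ΔcxrA to Δku70 was −4.93 for POX_g09172 (−5.62 with it) and −1.09 for POX_g09173 (−1.86 with it), and that of Δprmt3 to Δku70 was 2.29 (1.61 with it) and 1.73 (0.96 with it). POX_f07459 had 365, 357 and 415 in Δprmt3, 26.8, 21.7 and 22.9 in ΔcxrA and 211, 171 and 248 in Δku70, so that ΔcxrA was at 11.3% with a Δprmt3 ratio of 1.81, near the lower limit. The strains did not overlap for POX_f07459, and the gap was wider on the ΔcxrA side.

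Of the genes meeting the rule, POX_u09935 had one of the highest means. Among those above 0 in every library, its libraries differed most. It had 7246, 5609.6 and 8588 in Δprmt3, 1389.8, 1729 and 68.7 in ΔcxrA and 800.1, 8229.5 and 429 in Δku70. The Δku70 mean rested on replicate 2, without which the log2 ratio of ΔcxrA to Δku70 was 0.79 and the gene no longer met the rule. POX_a00257 was listed at 0 in replicates 1 and 3 of ΔcxrA and in replicates 1 and 2 of Δku70, with 10.9 in the remaining ΔcxrA library, 40.5 in the remaining Δku70 library and 15.8, 14.6 and 50.7 in Δprmt3. For these 2 genes the spread within Δku70 was wider than the differences between strain means.

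**Figure D3:**
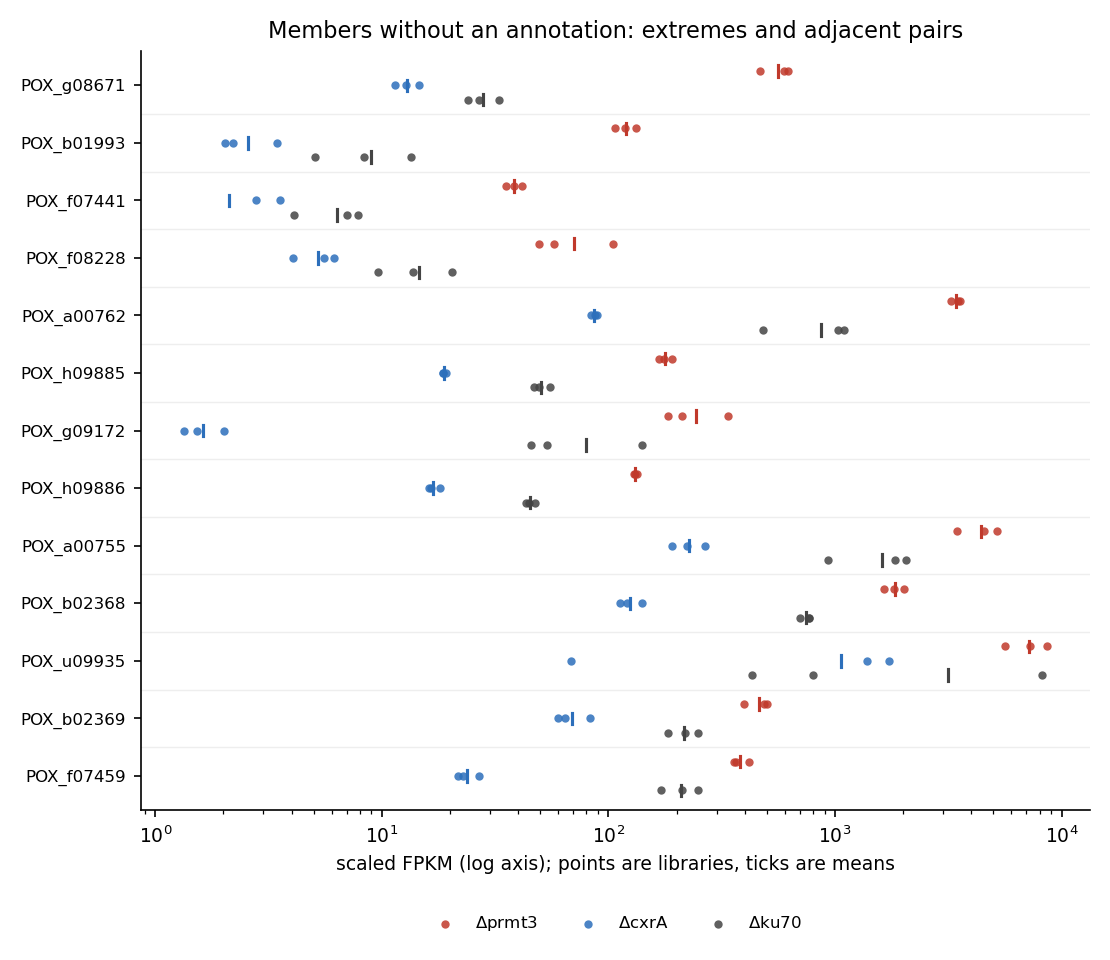
Scaled FPKM (log axis) in the 9 libraries of unannotated genes with the largest Δprmt3 ratios, the lowest ΔcxrA ratios or the highest Δku70 means, and of 2 adjacent pairs, sorted by Δprmt3 ratio; points are libraries and short ticks are strain means. POX_g08671 at the top has Δprmt3 libraries from 466 to 619 against Δku70 libraries from 23.9 to 32.8, and the value of 0 of POX_f07441 in ΔcxrA replicate 3 cannot be drawn on this axis.

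For both ratios, genes just inside the thresholds differed little from those just outside. For the Δprmt3 ratio, POX_b02118, POX_a01927 and POX_e07319 lay just inside at 1.75 each, and POX_a00589, POX_c04051 and POX_f07987 just outside at 1.74 each. For the ΔcxrA ratio, POX_b03270, POX_a01213 and POX_b02792 lay inside at 0.562, 0.554 and 0.543, and POX_h09730, POX_c04179 and POX_c03760 outside at 0.587, 0.589 and 0.593. For the Δku70 mean, POX_d05886, POX_h09821 and POX_f07412 lay inside at 2.17, 2.73 and 5.43, and POX_f08367, POX_h09541 and POX_f07342 outside at 1.297, 1.05 and 0.969. With libraries of a strain differing by a median of 1.34-fold or so, membership at the Δprmt3 limit turned on differences smaller than the spread between replicates. The 45 genes not named individually for annotation, extremes, position or closeness to a threshold had Δprmt3 ratios of 1.76 to 3.96 and ΔcxrA means of 18.7% to 53.8% of Δku70.

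Position along the chromosomes was not part of the rule. Gene order was taken from RefSeq, in which 85 of the 86 genes were found. In 9 cases 2 of the genes were directly adjacent, and 20 of the 86 had another of them within 2 protein-coding positions, in 10 pairs. No annotated spans of adjacent genes overlapped. Whether the libraries kept strand is not given in the sources used here, so reads running across a gene border cannot be assigned to 1 of the genes.

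The run that includes the deleted gene cxrA had POX_a00762 on one side and the endoglucanase gene POX_a00764 on the other. POX_a00762, with no annotation, had 3235, 3551 and 3492 in Δprmt3, 83.5, 89.4 and 87.3 in ΔcxrA and 1032, 1097 and 481 in Δku70. Farther along, POX_a00755 had 3439, 5204 and 4555 in Δprmt3, 191, 223 and 267 in ΔcxrA and 2056, 1831 and 933 in Δku70. In both genes the groups were well apart, with ΔcxrA at 9.97% and 14.1% of Δku70. An effect of the replaced cxrA locus on the genes beside it and an effect of losing CxrA cannot be told apart for POX_a00762 and POX_a00764.

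The genes around POX_a00755 moved otherwise. All 9 genes from POX_a00752 to POX_a00761 other than POX_a00755 were called lower in both mutants, with log2 fold changes of −2.10 to −1.16 in Δprmt3 and −2.57 to −1.68 in ΔcxrA (limma, highest adjusted p = 0.00989 and 0.000699). POX_a00755 lay within this stretch and POX_a00762 directly after it, and the Δprmt3 libraries of both were above those of Δku70. The genes of the block are named by position only, since no function is given for them here.

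Neighbouring genes with a related enzyme function were found in 2 further runs. On chromosome I, the arabinanase gene POX_a01927, the β-xylosidase gene POX_a01928 and the unannotated POX_a01931 surround POX_a01930, a gene the rule left out, and POX_a01929, also annotated as a β-D-xylosidase gene. POX_a01929 was called higher in Δprmt3 (log2 fold change 1.12, adjusted p = 0.000777, limma), and in ΔcxrA it had a log2 fold change of 0.53 that did not pass the fold threshold. On chromosome III, the arabinofuranosidase genes POX_c03491 and POX_c03492 lie next to POX_c03490, a gene the rule left out. The next genes beyond it, POX_c03489 and POX_c03488, were called higher in Δprmt3 (log2 fold change 2.59, adjusted p = 9.02e-05, and 1.74, adjusted p = 0.000858, limma). In ΔcxrA these had log2 fold changes of 0.66 and −0.74, neither of which passed the fold threshold. Both stretches also held genes called lower in both mutants (limma). POX_a01932, directly beside POX_a01931, had log2 fold changes of −1.48 in Δprmt3 (adjusted p = 1.02e-05) and −2.67 in ΔcxrA (adjusted p = 1.47e-07), and POX_c03487, beyond POX_c03488, had −1.30 (adjusted p = 0.000147) and −2.20 (adjusted p = 2.16e-06).

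On chromosome II, the unannotated pair POX_b03266 and POX_b03267 lay between POX_b03265 and the sugar transporter-like gene. POX_b03266 had 229, 197 and 169 in Δprmt3, 39.7, 50.7 and 55.6 in ΔcxrA and 139, 88.0 and 111 in Δku70. POX_b03267 had 217, 172 and 161 in Δprmt3, 28.5, 34.4 and 39.9 in ΔcxrA and 91.5, 100.2 and 93.6 in Δku70. The adjacent POX_b03265 had a mean of 12.9 in Δprmt3, 14.6 in ΔcxrA and 3662 in Δku70 (log2 fold change −8.47, adjusted p = 8.11e-05, and −8.09, adjusted p = 3.20e-05, limma). A gene far lower in both mutants was thus directly beside a pair that had opposite directions in them.

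**Figure D4:**
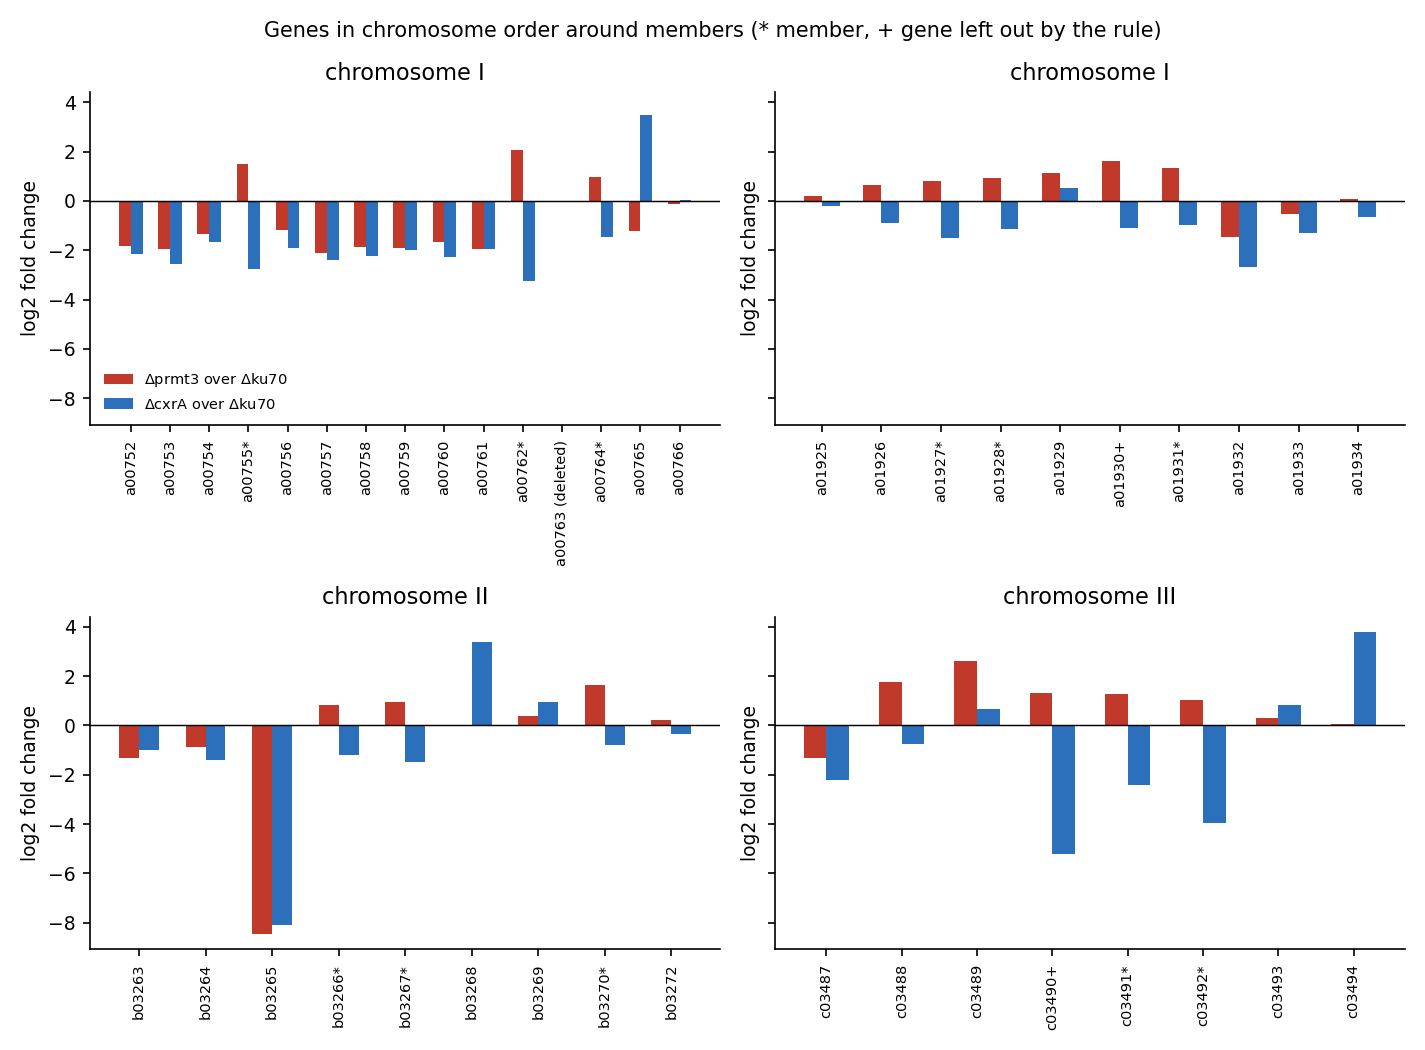
Log2 fold changes of Δprmt3 over Δku70 (red) and ΔcxrA over Δku70 (blue) on the fitted scale, for genes in RefSeq order on 4 stretches of chromosomes I, II and III; asterisks mark the 86 genes, plus signs genes the rule left out, and the deleted cxrA gene has no bars. Every marked gene has bars in opposite directions, while the 9 unmarked genes from POX_a00752 to POX_a00761 point down in both mutants and POX_b03265 reaches −8.47 and −8.09.

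Other adjacent pairs had no annotation. POX_b02368 had 1646, 2019 and 1829 in Δprmt3, 113, 120.4 and 141 in ΔcxrA and 704, 766 and 767 in Δku70. Its neighbour POX_b02369 had 395, 499 and 485 in Δprmt3, 60.1, 64.0 and 82.7 in ΔcxrA and 217, 249 and 183 in Δku70. Both were separated without overlap from Δku70 in each comparison. On chromosome VIII, POX_h09885 had 167, 176 and 191 in Δprmt3, 18.5, 18.7 and 19.2 in ΔcxrA and 49.1, 55.0 and 47.0 in Δku70. The next gene, POX_h09886, had 133, 130.2 and 131 in Δprmt3, 16.1, 16.5 and 18.0 in ΔcxrA and 47.6, 43.3 and 44.5 in Δku70. POX_h09885 was the higher of the 2 in every strain, most clearly in Δprmt3, and their ΔcxrA means were 37.3% and 37.4% of Δku70. The pair POX_h09819 and POX_h09821 on the same chromosome was at 27.5 and 7.66 in Δprmt3, 6.28 and 1.33 in ΔcxrA, and 12.2 and 2.73 in Δku70, as means.

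Both pairs on chromosome VI had 1 library apart from its strain. POX_f08523 had 576, 158 and 148 in Δprmt3, 20.8, 19.0 and 22.0 in ΔcxrA and 159, 164 and 100.3 in Δku70. The next gene, POX_f08524, had 574, 240.2 and 265 in Δprmt3, 24.3, 43.3 and 26.8 in ΔcxrA and 149.7, 80.9 and 111 in Δku70. In both, Δprmt3 replicate 1 was the high one, the library that also set the mean of the Zn2Cys6 gene POX_b02493. Without it, the log2 ratio of Δprmt3 to Δku70 was 0.12 for POX_f08523 (1.06 with it), which then no longer met the rule, and 1.16 for POX_f08524 (1.66 with it). In the pair POX_f07411 and POX_f07412, that library was instead the low one. POX_f07411 had 46.3, 92.4 and 92.2 in Δprmt3, 17.7, 23.5 and 21.2 in ΔcxrA and 50.8, 44.8 and 25.6 in Δku70, and POX_f07412 had 6.36, 30.2 and 26.9 in Δprmt3, 2.75, 2.79 and 2.44 in ΔcxrA and 6.15, 6.75 and 3.39 in Δku70. For both, this library lay within or next to the range of Δku70, while the other Δprmt3 libraries were above it.

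Among the 270 tested genes within 2 protein-coding positions of the 86, none was called higher in Δprmt3 and lower in ΔcxrA (limma). In Δprmt3, 18 were called higher (6.67%, against 3.72% of all annotated genes) and 15 lower (5.56%, against 7.43%). In ΔcxrA, 39 were called higher (14.4%, against 14.6%) and 45 lower (16.7%, against 13.9%), 1 of the lower ones being the deleted cxrA itself. The shares over all annotated genes include the 86 and the genes left out by the rule, and those of the neighbours do not. Of the 86, 47 were called higher in Δprmt3 and 66 lower in ΔcxrA. Without further scaling of the FPKM, the ΔcxrA counts among these neighbours were 59 higher and 30 lower. Leaving the cxrA gene out of the count, 13 of the neighbours were lower in both mutants, 5 were higher in both, 13 were higher in Δprmt3 with no call in ΔcxrA, and 31 were lower in ΔcxrA with no call in Δprmt3. With an unadjusted p-value under 0.05 in both comparisons and the same limits on the fold change, the opposite response was seen in 0 neighbours. The count of 0 was largely set by the choice of the genes, and nothing is read from it. A neighbour with that response and a Δku70 mean of at least 2 would have been among the 86 or the genes left out. Of the 47 annotated genes with both calls, 36 were among the 86 and at least 9 were left out by the rule.

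Other cell wall and transport genes were counted from 4 lists made from the study's annotation tables, 130 genes with 14 of the 86 among them. These tables hold genes the study called on the same libraries, and 1 table was shortened, so the lists are no independent evidence. Of 35 other cellulase, xylanase and β-glucosidase genes, 7 were called higher and 4 lower in Δprmt3, and 2 higher and 29 lower in ΔcxrA, with median log2 fold changes of 0.18 and −2.03. Of 17 other hemicellulose side-chain and mannan enzyme genes, 6 were higher and 2 lower in Δprmt3, and 3 higher and 8 lower in ΔcxrA, with medians of 0.59 and −0.59. Over all annotated genes tested, the medians were 0.01 in both comparisons.

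Of 24 other pectin enzyme genes, 14 were called higher and 5 lower in Δprmt3, and 10 higher and 5 lower in ΔcxrA, with medians of 1.19 and 0.58. The pectin list also held the exo-arabinanase gene POX_a01927, counted above with the side-chain enzymes. Of 40 other sugar transporter genes, 12 were higher and 13 lower in Δprmt3, and 8 higher and 21 lower in ΔcxrA, with medians of −0.02 and −1.05. Among the 116 listed genes outside the 86, 9 were called both higher in Δprmt3 and lower in ΔcxrA, and all 9 were genes the rule left out. This follows from the rule, since a listed gene with both calls and a Δku70 mean of at least 2 was either among the 86 or left out by name, and it says nothing of how often the opposite response occurs in these classes. Lower in ΔcxrA with no call in Δprmt3 was found for 41 of the 116 genes. The patterns cannot be ranked by frequency, as 14 listed genes chosen for the opposite response are not among the 116.

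The spread within strains was larger for the 86 genes than over all annotated genes. The rule used these same library values and can favour genes with 1 deviant library, so the difference is a description only. The median ratio of the highest to the lowest library was 1.34 in Δprmt3, 1.32 in ΔcxrA and 1.36 in Δku70, against 1.24, 1.16 and 1.21 over all annotated genes with a Δku70 mean of at least 2, leaving out genes listed at 0 in a library of the strain. Within ΔcxrA, replicate 3 was the highest library for 55 of the 86 (64.0%, against 44.8% of 8153 other annotated genes) and replicate 1 the lowest for 52 (60.5%, against 40.3%). Within Δku70, replicate 2 was the highest for 39 (45.3%, against 31.2%) and replicate 3 the lowest for 43 (50%, against 32.4%). These shares are a description only. The genes of 1 library share its mycelium and preparation, and the same library values entered the means that chose the 86 genes, which can itself favour particular libraries.

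**Figure D5:**
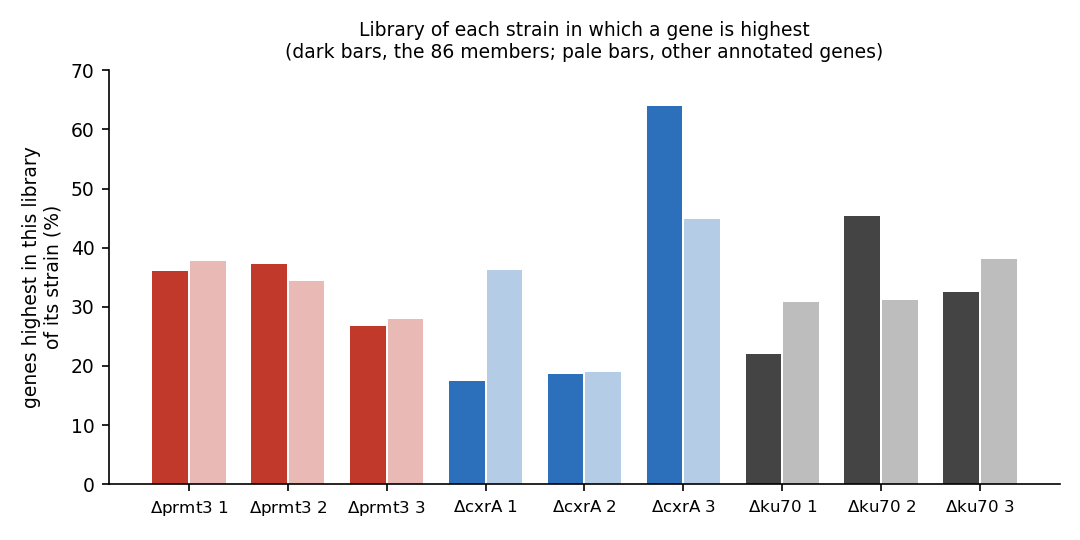
Percentage of genes (y axis) that are highest in each library of its strain (x axis), for the 86 genes (dark bars) and the 8153 other annotated genes with a Δku70 mean of at least 2 (pale bars). The largest gap is at ΔcxrA replicate 3, with 64.0% of the 86 genes against 44.8% of the others.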

How the data were processed

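Strains and replicate numbers came from the sample labels; the Δprmt3 libraries carry another identifier there (POX03070) and were matched to Δprmt3 because the paper's sequencing had no other mutant besides ΔcxrA; POX_b03080 served as a check only. Read cleaning (SOAPnuke), mapping (HISAT2) and quantification (RSEM with Bowtie2) were done by the authors, who deposited 1 table of FPKM values for each of the 9 libraries. FPKM hold no counts and the depth of each library was not estimated, so the FPKM are given without counting intervals.

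FPKM were divided by median-of-ratios factors over the 9335 features above 0 in every library. Features above 0 in any library (10578) were fitted as log2(scaled FPKM + 0.1) with limma 3.58.1 in R 4.3.3 (eBayes with trend and 2.38 prior degrees of freedom), with all strains in 1 fit and Benjamini-Hochberg adjustment. Fold changes on this scale understate those of genes with low FPKM. Ratios of the 86 genes are ratios of mean scaled FPKM. Tables were computed with pandas 2.3.3 and numpy 2.4.6 (Python 3.11.15). The fit was tried on simulated data for the Δprmt3 comparison, with a log2 change of 2 up or down in 200 of 10578 features. It called 186 of the 200 and 5 unchanged features. Changes nearer to the call limit of 1 were not simulated.

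The members and lists were chosen with earlier results of these data known. Genes were named for an annotation, for the 5 highest Δprmt3 ratios, the 5 lowest ΔcxrA ratios, the 5 highest Δku70 means, a place within 2 genes of another member, of a left-out gene or of a deleted gene, or closeness to a threshold; POX_a00257, POX_a00755's and POX_b03266's neighbours and the genes beside the enzyme runs were named after their values were seen. Annotations and the 4 lists came from the study's supplementary annotation, 1 table of which was shortened. RefSeq assembly ASM172317v3 gave gene order and chromosomes only; it holds no product names, so lists by product were not made. As alternatives, the libraries were left unscaled or quantile normalized, the pseudocount was set to 0.01 or 1, features with a mean FPKM under 1 were dropped, each comparison was fitted on its own 6 libraries, the replicate number entered as a block, and each library was left out in turn.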

Additional observations from a re-analysis of the deposited data

How the results depend on the processing

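The membership of the group depended on scaling and on single libraries. Without further scaling, 41 genes met the rule, all of them among the 86, and with quantile normalization 98 did, of which 75 were among the 86. Leaving out the factors made every threshold harder to meet, so no gene could join the 86 in that setting. With 1 library left out, 85 to 98 genes met the rule and 70 to 85 of the 86 remained. Of the 86, 53 met it whichever library was left out and 35 met it in every setting. All 86 stayed higher in Δprmt3 and lower in ΔcxrA without further scaling (1.57 to 18.0 times and 2.69% to 75.0% of Δku70) and with quantile normalization (1.20 to 19.0 times and 1.41% to 60.1%). Without further scaling, these directions were set by the rule. Factors between 0.822 and 1.28 cannot turn round ratios of at least 1.75 or at most 0.57. Without further scaling, the median log2 fold change of all annotated genes tested was −0.125 in Δprmt3 and 0.416 in ΔcxrA. With scaling it was 0.0127 and 0.0132. Of the ratios of named genes, 2 turned round when 1 library was left out. The log2 ratio of POX_b02493 in Δprmt3 was −0.046 without Δprmt3 replicate 1 and ranged up to 1.72 with others left out, and that of POX_u09935 in ΔcxrA was 0.79 without Δku70 replicate 2 and ranged down to −2.12.

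Without further scaling, ΔcxrA had 2246 genes called higher and 849 lower (1365 and 1300 with scaling), and 59 neighbours of the 86 genes called higher (39 with scaling). Leaving out 1 library gave 322 to 359 higher and 635 to 695 lower genes in Δprmt3, and 1271 to 1334 higher and 1238 to 1326 lower in ΔcxrA. Among the listed genes it gave 36 to 38 and 21 to 24 in Δprmt3, and 20 to 23 and 59 to 62 in ΔcxrA. Among the neighbours it gave 14 to 20 and 13 to 16 in Δprmt3, and 28 to 34 and 42 to 45 in ΔcxrA. Libraries with the same replicate number showed little shared deviation (correlation of deviations −0.032 to 0.053 for Δprmt3 and −0.069 to 0.021 for ΔcxrA). Those with different numbers gave −0.073 to 0.054 and −0.074 to 0.071. With 3 libraries per strain, these values cannot tell whether cultures of the same number were handled together. With the replicate number as a block, 329 genes were called higher and 671 lower in Δprmt3, and 1343 higher and 1307 lower in ΔcxrA. The other counts of calls stayed within 1.5 times under every alternative. With 3 libraries per strain and no read counts, single values of genes at low FPKM carry an unknown counting error.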
